A study of Mus musculus with 8 samples.

Results

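The proteasome genes are the 49 gene entries of the deposited count matrix, out of 50686, whose Ensembl identifier maps to a protein-coding mouse gene with a symbol from the series Psma, Psmb, Psmc, Psmd, Psme, Psmf and Psmg followed by a number. Membership was set by name alone and used no measured value. Another 3 entries with such symbols are pseudogenes and were not counted as members. The members comprise 8 alpha subunits of the 20S core, 7 constitutive and 3 inducible or tissue-specific beta subunits, 6 ATPases, 3 non-ATPase base subunits and 8 lid subunits of the 19S regulatory particle, 3 assembly factors of the 19S base, 4 assembly chaperones of the 20S core, 6 genes of activators and an inhibitor, and Psmc3ip, which carries the prefix but encodes a meiotic recombination factor. Psmb9, the inducible counterpart of Psmb6, was not analysed here.

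The proteasome is the protease that degrades most ubiquitin-tagged proteins of the cell. Its 20S core is a barrel of alpha and beta rings in which Psmb5, Psmb6 and Psmb7 carry the catalytic sites, and the 19S particle binds ubiquitin chains, removes them and threads the substrate into the barrel with its ring of ATPases. The activators encoded by Psme1 to Psme4 can cap the core in place of the 19S particle, and interferon replaces the catalytic beta subunits with inducible ones to form the immunoproteasome. Proteasome genes are often transcribed together, and the factor Nfe2l1 raises their transcription when proteasome activity is low.

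The study cultured mouse embryonic stem cells (mESCs) of 2 genotypes, wild-type (R9wt) and Rad9-/- (R9del), in a payload aboard a satellite (Space) or in a like payload on Earth (Ground), for 1 day (D1) or 5 days (D5). Rad9 encodes a clamp protein of the DNA damage checkpoint. Each of the 8 combinations was 1 library, so no condition had a replicate, and p-values measure the spread among the 4 libraries of a group that also differ in the other conditions. D1 and D5 cultures sat over separate temperature controllers and started from different cell numbers. At D5 the R9del cultures also started from more cells than the R9wt cultures. All cells were fixed in RNAlater and held cold until the payload returned, and the number of clones behind each genotype is not given in the sources used here. Library totals ran from 58238440 to 96416907 counts. Rad9a stood at 70.3 to 93.4 CPM (TMM-scaled counts) in the 4 R9wt libraries and at 20.8 to 28.6 CPM in the 4 R9del libraries, so it was lower but not absent (log2 fold change -1.75, adjusted p = 0.0277 by edgeR, and 0.0328 to 0.103 with 1 library left out). The 8 mESC markers summed to 4038 CPM in Space_R9wt_D1 at the lowest and to 7143 CPM in Ground_R9wt_D1 at the highest, the same 2 libraries that hold the extremes of the proteasome genes (4038 to 5553 CPM in space and 4524 to 7143 CPM on the ground), against 22.9 to 50.8 CPM for feeder fibroblasts, 9.48 to 56.0 CPM for primitive endoderm and 1.85 to 9.48 CPM for haematopoietic cells. Of the mESC markers, 3 were above 0 in space against ground and 5 below, with a median of -0.30. By edgeR, Sox2 fell (log2 fold change -0.94, adjusted p = 0.0317, a call kept in 1 of 8 fits with a library left out) and Esrrb rose (1.20, adjusted p = 0.00635). Of the 4 endoderm markers, 3 were above 0 in space (Gata4 0.38, Gata6 1.02 and Pdgfra 1.81, adjusted p = 0.768, 0.403 and 0.0891), and Sox17, at most 6.11 CPM, fell (-3.88, adjusted p = 0.0187, kept in 5 of 8 such fits), for a list median of 0.70. Of the 4 haematopoietic markers tested, Itgam (2.08) and Cd3e (1.05) were above 0 without passing, Ptprc was at -0.29, and Spi1, at most 6.58 CPM, fell (-5.05, adjusted p = 0.00939), for a median of 0.38. Of the 4 feeder fibroblast markers tested, 3 were above 0 (median 0.44) and none passed. The part of these markers in the results was not tested. In bulk RNA, a change in transcript per cell and a change in the mix of cells cannot be told apart.

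RefSeq promoter sequences (build GRCm38.p6) were matched by symbol for 41 of the 49 members. The 250 bases upstream of the start are shown for 5 members named in the location and genotype comparisons below, Psma6 with 2 annotated starts. They are read 5′ to 3′ on the gene's strand. These members had small p in the same data, and none passed at an adjusted p under 0.05 in the main analysis. Psmd3 is not among the matched members. Capitals mark CCAAT (the NF-Y box), TGANNNNGC (the core of the antioxidant response element, which Nfe2l1 and Nfe2l2 bind) and CCGGAAG (an ETS core), on either strand.
Psma6, first start, chr12:55383972-55384221, plus strand: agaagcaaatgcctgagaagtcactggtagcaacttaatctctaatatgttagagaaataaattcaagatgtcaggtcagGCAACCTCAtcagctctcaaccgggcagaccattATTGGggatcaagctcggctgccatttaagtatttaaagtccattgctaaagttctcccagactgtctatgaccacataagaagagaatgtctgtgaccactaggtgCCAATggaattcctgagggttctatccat
Psma6, second start, chr12:55398575-55398824, plus strand: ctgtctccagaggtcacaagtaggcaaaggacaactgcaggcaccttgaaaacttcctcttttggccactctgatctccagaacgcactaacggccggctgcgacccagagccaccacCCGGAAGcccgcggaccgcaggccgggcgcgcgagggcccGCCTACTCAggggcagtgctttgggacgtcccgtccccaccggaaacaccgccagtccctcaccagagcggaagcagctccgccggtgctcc
Psme3, chr11:101315963-101316212, plus strand: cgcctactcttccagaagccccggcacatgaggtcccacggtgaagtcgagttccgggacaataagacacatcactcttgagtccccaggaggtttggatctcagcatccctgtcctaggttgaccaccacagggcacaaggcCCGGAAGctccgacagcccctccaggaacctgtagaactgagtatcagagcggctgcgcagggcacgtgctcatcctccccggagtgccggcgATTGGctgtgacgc
Psmd1, chr1:86064369-86064618, plus strand: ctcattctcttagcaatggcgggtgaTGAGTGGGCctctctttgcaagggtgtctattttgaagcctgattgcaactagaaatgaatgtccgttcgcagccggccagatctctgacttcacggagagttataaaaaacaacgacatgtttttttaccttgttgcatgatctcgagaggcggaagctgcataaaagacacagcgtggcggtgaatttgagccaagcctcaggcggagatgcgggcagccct
Psmd2, chr16:20651402-20651651, plus strand: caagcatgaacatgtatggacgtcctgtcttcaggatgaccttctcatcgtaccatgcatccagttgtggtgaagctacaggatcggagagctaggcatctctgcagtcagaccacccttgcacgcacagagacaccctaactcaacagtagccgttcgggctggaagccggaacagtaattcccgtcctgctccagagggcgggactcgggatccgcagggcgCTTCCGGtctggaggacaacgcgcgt
Psmc4, chr7:28050093-28050342, minus strand: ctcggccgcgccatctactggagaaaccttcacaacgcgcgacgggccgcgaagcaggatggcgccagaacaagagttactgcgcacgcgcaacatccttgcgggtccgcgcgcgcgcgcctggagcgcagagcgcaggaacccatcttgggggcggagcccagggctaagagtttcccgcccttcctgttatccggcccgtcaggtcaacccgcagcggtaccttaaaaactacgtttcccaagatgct

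CCAAT was found in 14 of 44 member windows (31.8%) and in 33.8% of all 32851 promoter windows of the same length. TGANNNNGC was found in 38.6% of member windows and in 35.2% of all windows. CCGGAAG was found in 31.8% of member windows and in 6.91% of all windows. Of the 14 windows with CCGGAAG, 9 belonged to the 15 windows of 19S subunits and 1 to the 12 windows of the core alpha and beta subunits 1 to 7, which was the second Psma6 window. The promoter of Psmc4 held none of the 3 motifs. A motif here is a match of letters and not a measured binding site.

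Proteasome transcripts were abundant in every library. Across the 8 libraries, 44 of the 49 members averaged at least 10 CPM, and the members together took 6519 CPM in Space_R9wt_D1 at the lowest and 11158 CPM in Ground_R9wt_D1 at the highest. Scaled to transcript length, the highest mean level was that of Psmb6, the caspase-like catalytic subunit, at 608 CPM per kb. Psma7 followed at 398 CPM per kb, Psma1 at 312 and Psmd7, a structural lid subunit, at 304. Among the ATPases the mean level per kb ran from 107 for Psmc6 to 249 for Psmc5, and among the lid subunits from 69.5 for Psmd13 to 304 for Psmd7. The 3 base subunits that are not ATPases had close means per kb, 131 for the ubiquitin receptor Psmd4, 138 for Psmd1 and 149 for Psmd2.

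The specialised subunits were low. Psma8, the testis alpha subunit that takes the place of Psma7, averaged 12.5 CPM per kb against 398 for Psma7. The inducible subunits Psmb8 and Psmb10 averaged 1.61 and 5.41 CPM per kb, where their constitutive counterparts Psmb5 and Psmb7 averaged 112 and 60.1. Psmb5, Psmb7 and Psmb3 share 49.9%, 12.8% and 55.0% of their 50-base words with other places of the genome, and exons of other genes overlap 11.8% of the exon bases of Psmb5 and 6.83% of those of Psmb8, so that these counts, and ratios made from them, are less certain. Psmb11, the thymus subunit, was between 0 and 0.28 CPM in all libraries and had no count in Ground_R9del_D1 and Space_R9del_D5, which allows up to 0.0449 and 0.0503 CPM there. The assembly factors spanned a wide range of mean CPM, from 7.61 for Psmg4 and 22.5 for Psmg3 to 96.7 for Psmg1 and 102 for Psmg2, and from 23.5 for Psmd9 and 62.2 for Psmd10 to 160 for Psmd5 (159.6 CPM). The activator genes ranged from 3.49 CPM for Psme2b, which shares 30.3% of its 50-base words with other places of the genome, to 164 CPM for Psme3, the nuclear activator.

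Members differed in how much they varied. Leaving out Psmb11, the highest library exceeded the lowest by a median of 2.18-fold, by under 2-fold for 17 of the 48 members and by over 4-fold for 5. The 5 were Psmb8 (11.4-fold), Psme3 (5.53-fold), Psmd3 (5.45-fold), Psmb10 (5.20-fold) and Psma6 (4.07-fold). The steadiest were Psmc6 at 1.31-fold and Psmd11 at 1.35-fold.

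**Figure D1:**
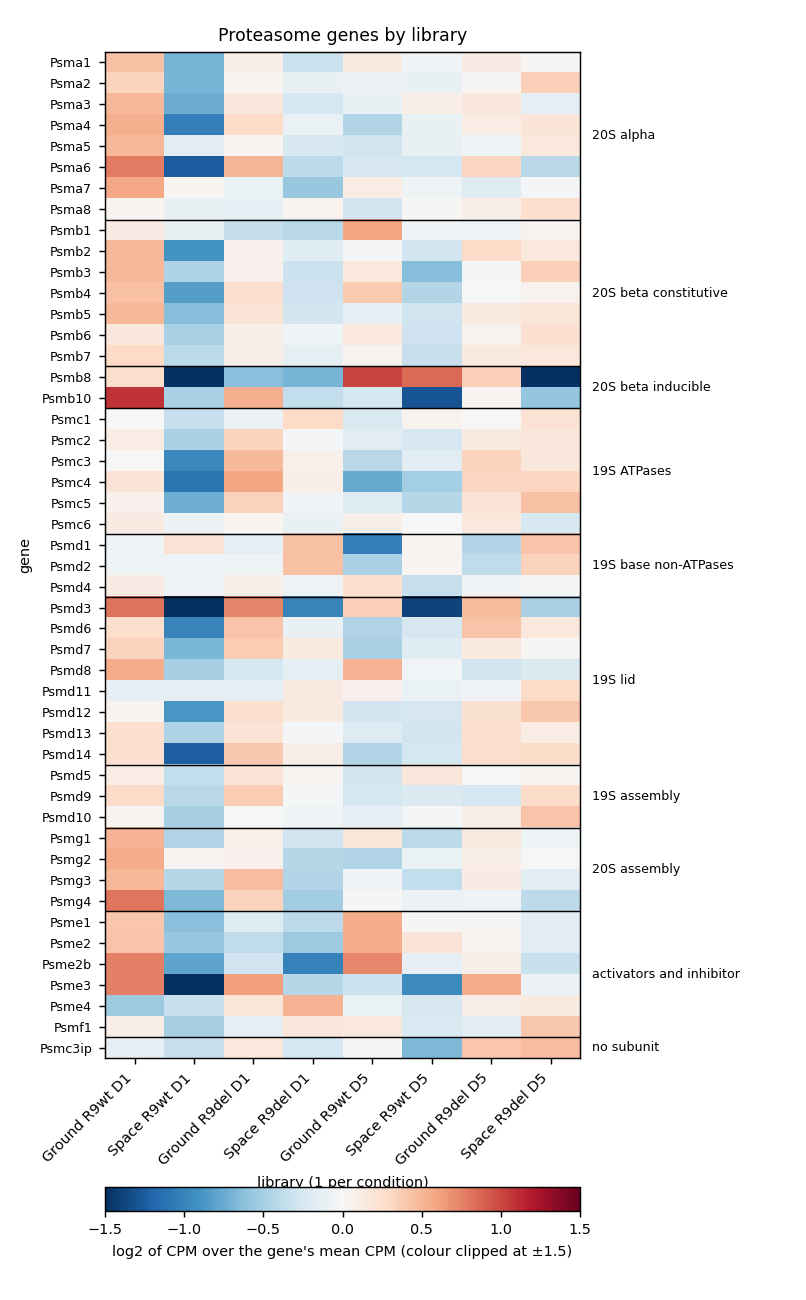
Level of 48 proteasome genes (rows, by class, without Psmb11) in the 8 libraries (columns), as the log2 of CPM over the gene's mean CPM, with colours clipped at 1.5 either way. Space_R9wt_D1 holds most of the lowest values (32 of 49 members, Psmb11 included) and Ground_R9wt_D1 more of the highest than any other library (21 of 49).

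Members were unevenly spread over the libraries in their extremes. Space_R9wt_D1 was the lowest library for 32 of the 49 members and for 10 of the 14 core subunits (Psma1 to Psma7 and Psmb1 to Psmb7), whereas it was the lowest for 17.3% of all 20473 genes tested and for 21.5% of the genes that averaged 10 CPM or more. Ground_R9wt_D1 was the highest for 21 members and for 11 core subunits, against 12.6% of all genes tested. Likeness between members was read against the mean of the core. The correlation of each core subunit with the mean of the other core subunits had a median Pearson r of 0.86 over 8 libraries, where the median over all genes tested was 0.02, a description of libraries that share their scaling. To the same core mean, the 4 chaperones of 20S assembly had a median r of 0.85 (Psmg1 0.92), the 17 subunits of the 19S particle 0.68, and the activator Psme3 0.91. Values of r below 0 were those of Psmd1 (-0.31), Psmd2 (-0.20), Psme4 (-0.14) and the barely detected Psmb11 (-0.34). Within the core, Psmb1 had the lowest r (0.235).

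The first comparison asked how members differed between space and ground (4 libraries against 4). Most members were lower in space. The fitted log2 fold change was below 0 for 40 of 49 members, with a median of -0.25 where the median of all genes tested was 0.05 and that of genes with at least 10 CPM was 0.02. All 14 core subunits were lower (median -0.35), as were 13 of the 17 subunits of the 19S particle (median -0.21) and all 4 chaperones of 20S assembly (median -0.55). By edgeR's quasi-likelihood test at an adjusted p under 0.05, 1 member fell and none rose, where 5.13% of all genes fell and 1.19% rose. At an unadjusted p under 0.05 stood 10 members, 8 lower and 2 higher, or 20.4% of the members against 18.9% of all genes. The rule of the study, a change of 2-fold or more at an unadjusted p under 0.05, gave 3 lower members (Psmd3, Psme3 and Psmb10), 6.12% against 7.97% of genes, and 0 higher ones against 2.91%. Members were lower in all 4 matched pairs in 15 cases (30.6%) and higher in 2 (4.08%), against 18.2% and 14.9% of all genes. Groups without overlap were seen for 8 members lower in space (16.3%) and 2 higher (4.08%), against 9.37% and 5.07%.

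Psmd3, a structural subunit of the lid, was the member that fell. It stood at 69.97 CPM in Space_R9wt_D1, 108 in Space_R9del_D1, 83.0 in Space_R9wt_D5 and 155 in Space_R9del_D5, and at 382, 359, 277 and 301 CPM in the ground libraries of the same conditions. Every space library was below every ground library, with means of 104 ± 37.5 CPM in space and 330 ± 48.9 CPM on the ground (SD, n = 4 libraries each; 329.8 before rounding). The log2 fold change was -1.63 ± 0.27 (SE), at an adjusted p of 0.00545 by edgeR, and the call held with any 1 library left out. The other 7 lid subunits had fold changes between -0.42 (Psmd6) and 0.16 (Psmd11), with adjusted p from 0.477 (Psmd8) to 0.892 (Psmd12), so none of them passed. Psmd14, the deubiquitinase of the lid, was at 111 CPM in Space_R9wt_D1, below the 192 to 346 CPM of the other libraries, and had a log2 fold change of -0.30 (adjusted p = 0.698).

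Psma6, an alpha-ring subunit whose promoters are shown above, came next among the lower members. It was at 87.7 CPM in Space_R9wt_D1 and 158 in Space_R9del_D1, at 173 in Space_R9wt_D5 and 156 in Space_R9del_D5. On the ground it was at 357, 295, 174 and 261 CPM. The groups did not overlap, but the R9wt D5 pair was nearly equal (173 and 174 CPM), and the log2 fold change of -0.89 ± 0.28 did not pass (adjusted p = 0.104). Psme3 was at 49.99, 122, 84.4 and 154 CPM in space and at 277, 251, 131 and 241 CPM on the ground, in the same order of conditions. Its groups overlapped, and its log2 fold change was -1.10 ± 0.36 (adjusted p = 0.116).

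**Figure D2:**
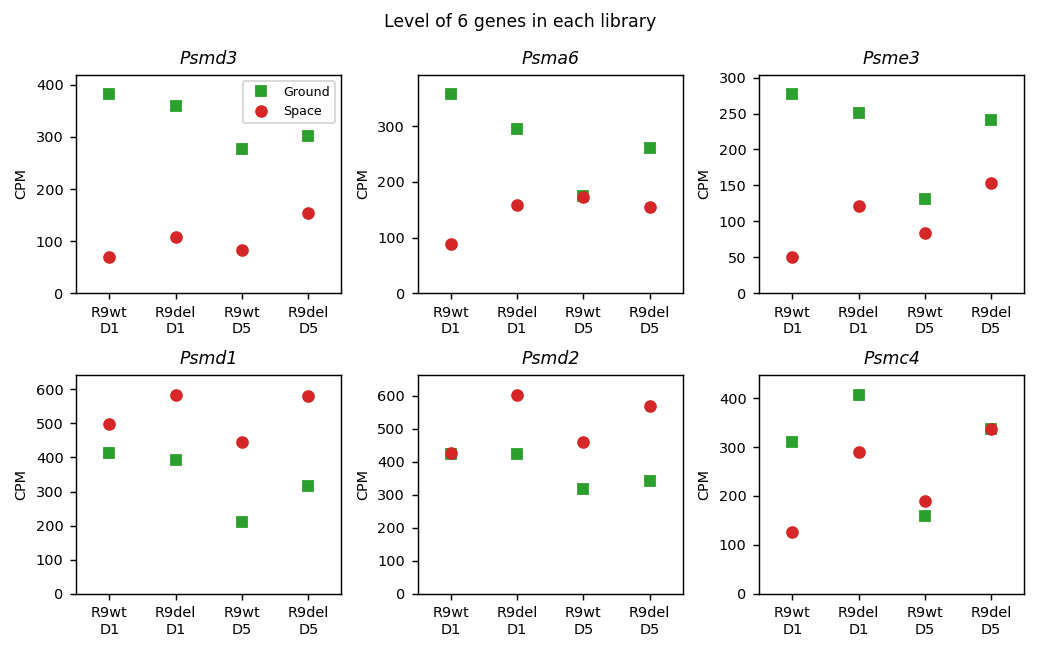
CPM of Psmd3, Psma6, Psme3, Psmd1, Psmd2 and Psmc4 in each library, with 1 point per library and each axis starting at 0. Psmd3 is lower in space in all 4 conditions (69.97 to 155 CPM against 277 to 382), while Psmd1 is higher in space in all 4.

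The largest subunits of the base went the other way. Psmd1, a scaffold of the base, was at 499, 584, 444 and 581 CPM in space and at 412, 392, 211 and 317 CPM on the ground. The groups did not overlap, and the log2 fold change was 0.70 ± 0.24 (adjusted p = 0.138). Psmd2, its partner scaffold, was at 427 and 603 CPM in space at D1 and at 460 and 568 CPM at D5, against 424 and 423 CPM on the ground at D1 and 317 and 343 CPM at D5. Its R9wt D1 pair was nearly equal (427 and 424 CPM), and its log2 fold change was 0.48 ± 0.20 (adjusted p = 0.217). The third member with a value above 0 that the naming rule takes was the ATPase Psmc1, at 0.19 ± 0.19 (adjusted p = 0.667). Its value ran from 0.09 without Space_R9del_D1 to 0.28 without Space_R9wt_D1. Psmd2 shares 18.2% of its 50-base words with other places of the genome and Psmc1 shares 220 of its 1469, while Psmd3, Psma6, Psme3 and Psmd1 share none. Exons of other genes overlap 13.1% of the exon bases of Psmd1 (Armc9 and Htr2b) and 0.34% of those of Psmd3, and reads of such stretches may belong to either gene.

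The activators and the inhibitor were mixed. Psme1 and Psme2, the 2 subunits of the interferon-responsive activator, had log2 fold changes of -0.46 and -0.40 and were lower in 4 of 4 pairs (adjusted p = 0.378 and 0.489), and Psme2 shares 25.5% of its words with other places. Psme2b had -0.86 (adjusted p = 0.261). Psme4, the activator for acetylated histones, had 0.16, and Psmf1, the inhibitor of the core, 0.05, with adjusted p of 0.801 and 0.947. Of the assembly factors, Psmg1, Psmg3 and Psmg4 were lower in all 4 pairs with no overlap of groups, at -0.50, -0.59 and -0.68 (adjusted p = 0.172, 0.185 and 0.268), and Psmg2 had -0.19 (adjusted p = 0.738). Psmd5, Psmd9 and Psmd10, which chaperone the base, had values between -0.11 and 0.04. Psmc3ip had -0.24 (adjusted p = 0.744).

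**Figure D3:**
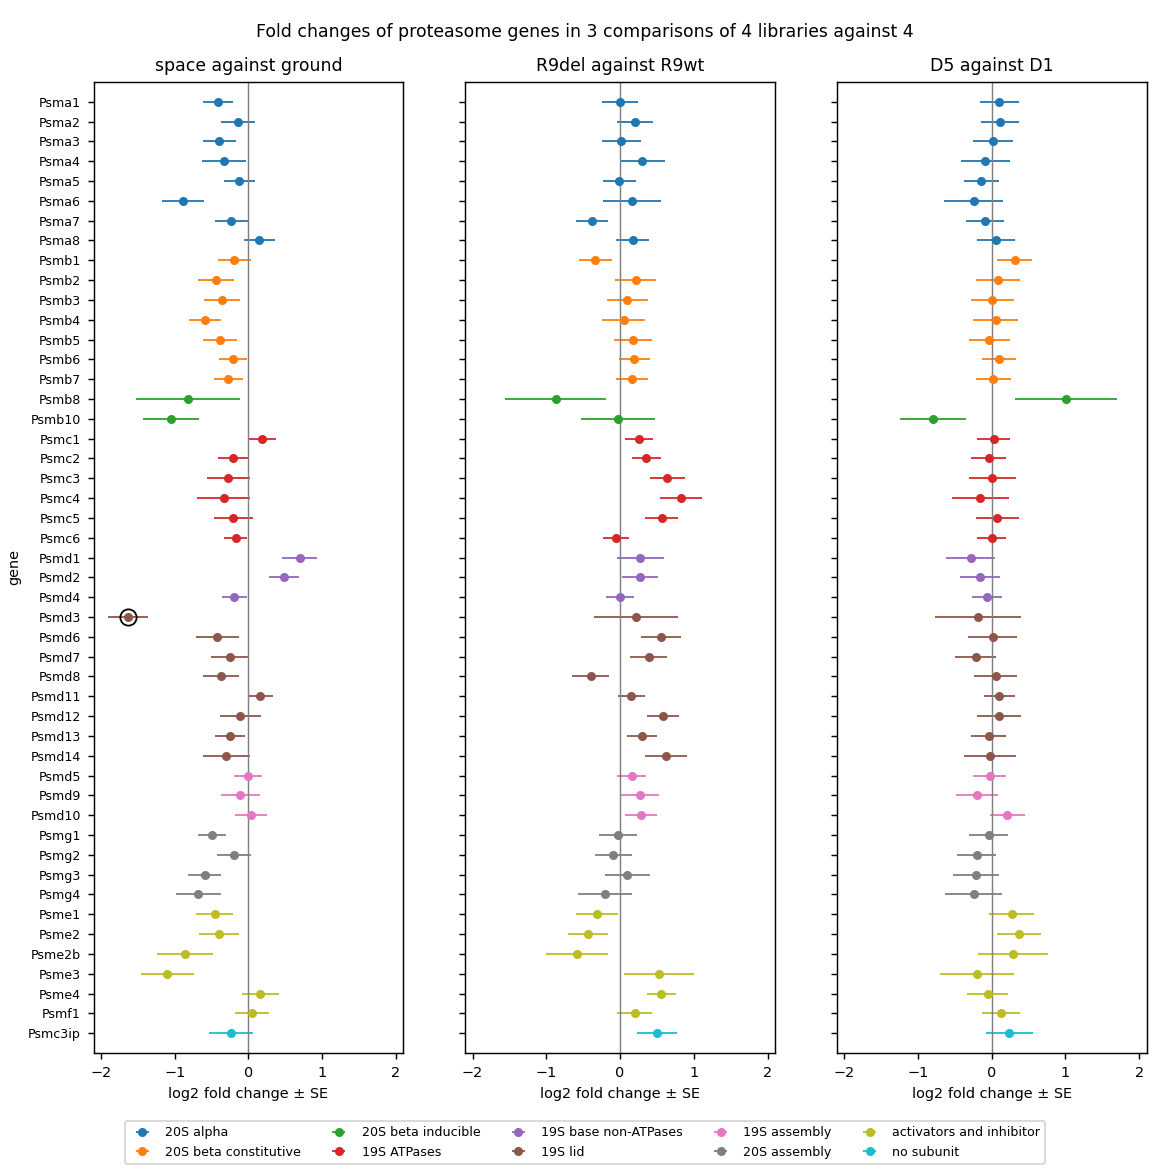
Log2 fold change (point) and its standard error (bar) of 48 members in the 3 comparisons of 4 libraries against 4, coloured by class; a black ring marks an adjusted p under 0.05. Psmd3 in space against ground (-1.63) is the single ringed point, and the core subunits lie left of 0 in that panel.

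Longer transcripts tended to have the higher values. Across the 49 members, the log2 fold change of space against ground had a Spearman rho of 0.54 with transcript length and of -0.44 with GC content, where the 9239 genes of at least 10 CPM with an annotated transcript had 0.38 and -0.04. Psmd1 and Psmd2 have transcripts of 3112 and 3001 nt, and those of Psma6, Psmd3 and Psme3 are 1042, 2148 and 2664 nt. Psmd3 and Psme3 hold 200-base windows of up to 74.5% and 76.0% GC, and Psme4, with a location value of 0.16, one of 87.0%. The rho with the highest window GC was -0.26 for the members and -0.22 for the genes of at least 10 CPM. The part of length and GC content in the location values was not tested, and these points share their libraries.

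Taken pair by pair, the difference between space and ground was unequal. The median log2 difference of the 49 members was -0.93 in the R9wt D1 pair and -0.29 in the R9del D1 pair. It was -0.16 in the R9wt D5 pair (-0.11 with DESeq2 size factors, and -0.05 with library size alone, where 26 members were lower instead of 32) and 0.02 in the R9del D5 pair (0.07 and 0.04), while the medians of all genes tested lay between -0.07 and 0.02. For the core subunits the 4 medians were -1.08, -0.39, -0.20 and 0.07, and for the 19S particle -0.79, -0.23, 0.04 and 0.04. In R9wt at D1, 44 of 49 members were lower in space and 20 of the 49 by at least 2-fold, where 19.6% of all genes tested were lower by that much. The 20 became 16 with DESeq2 size factors (18.2% of genes) and 14 with library size alone (16.9% of genes). The median of that pair was then -0.87 and -0.80. In R9del at D5, 21 members were lower and 28 higher. Each pair is 1 library against 1 library, so no test is attached. Without Space_R9wt_D1 the group comparison had 39 of 49 members below 0 with a median of -0.23, and Psmd3 was again the called member. The median was -0.41 without Space_R9del_D5, the lowest of the values with 1 library left out, and -0.33 without Ground_R9wt_D5.

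**Figure D4:**
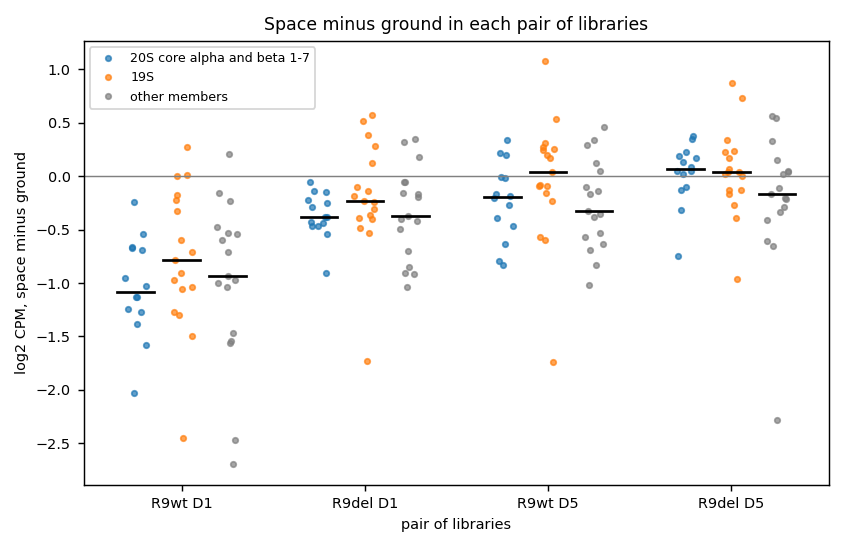
Log2 CPM in space minus ground for each member (points, without Psmb11) in the 4 pairs of libraries, in 3 groups of members, with medians as bars. The core medians go from -1.08 in R9wt D1 to 0.07 in R9del D5, and Psmd3 is the lowest 19S point in every pair.

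Whether the location difference depended on the other conditions was tested with interaction terms. For location and genotype, no member had an adjusted p under 0.05 by edgeR or by DESeq2, where 0 and 34 of all 22561 genes had one. At an unadjusted p under 0.05 by edgeR were 2 of the 49 members (Psmf1 and Psmd8), against 3.12% of genes. The value was above 0 for 45 of the 49 members, a space to ground ratio that was higher in R9del than in R9wt, where 50.1% of all genes were above 0, and for 41 of them when libraries were scaled by size alone (45.4% of genes). For location and culture duration, a test added after the pair medians were seen, 43 of the 49 members had a value above 0, that is, a space to ground ratio that was higher at D5 than at D1, where 51.8% of all genes were above 0. No member passed by edgeR (smallest adjusted p = 0.733), where 1 of 22561 genes did. At an unadjusted p under 0.05 were 6 members (Psmc4, Psma4, Psma6, Psme3, Psmd6 and Psmd14), 12.2% of members against 6.59% of genes. The values of these 6 lay between 0.91 for Psmd6 and 1.24 for Psma4, which shares 29.8% of its words with other places, on the log2 scale.

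The second comparison set R9del against R9wt. The fitted log2 fold change was above 0 for 34 of 49 members, with a median of 0.17 where all genes tested had -0.05. Haematopoietic markers had a median of 1.76 (3 above 0 and 1 below), with Itgam at 2.42, Ptprc at 1.86, Cd3e at 1.66 and Spi1 at -0.685. Their mean levels were low, from 0.28 CPM for Ptprc to 2.31 CPM for Cd3e. The mESC markers had a median of 0.12 (5 above 0 and 3 below), with Zfp42 at 1.315 and Dppa5a at -1.03. Endoderm and feeder fibroblast markers had medians of 0.15 and -0.07. None of these markers passed by edgeR, and their part in the genotype values was not tested. The median was 0.46 for the 6 ATPases, 0.35 for the 8 lid subunits and 0.13 for the 14 core subunits. Of the 17 subunits of the 19S particle, 15 were above 0. Across the 49 members, the genotype value had a Spearman rho of 0.45 with exon number and 0.34 with transcript length. Genes of at least 10 CPM had -0.04 and 0.08. The part of exon number and length in these values, and in the balance of core and 19S transcripts below, was not tested. The medians of the 19S particle and of the core were 0.63 and 0.40 in the Space D1 pair, 0.39 and 0.37 in Space D5, 0.40 and 0.10 in Ground D5, and -0.00 and -0.31 in Ground D1 (0.11 and -0.20 with library size alone), and no test compared the 2 groups of genes. By edgeR's quasi-likelihood test no member passed in either direction, where 1.19% of all genes rose and 0.85% fell, and DESeq2's Wald test also called 0 members, where it called 9.99% of all genes. At an unadjusted p under 0.05 were 5 members, all higher (Psmc4, Psme4, Psmc3, Psmd12 and Psmc5), or 10.2% of members against 20.2% of genes. By the 2-fold rule there were 0 members, against 6.37% of genes higher and 7.39% lower. In all 4 pairs, 10 members were higher (20.4%) and 1 lower (2.04%), against 19.1% and 19.3%, and 3 members (6.12%) were higher without overlap (Psmc3, Psmd12 and Psme4) against 7.1%. The share of members higher in every pair was near the background.

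Psmc4, an ATPase of the base ring, had the smallest p. It was at 290 CPM in Space_R9del_D1, 407 in Ground_R9del_D1, 337 in Space_R9del_D5 and 337 in Ground_R9del_D5, and at 126, 311, 190 and 159 CPM in the R9wt libraries of the same conditions. The R9del value was higher in each pair, but Ground_R9wt_D1 (311 CPM) exceeded Space_R9del_D1. The log2 fold change was 0.83 ± 0.28 (adjusted p = 0.151 by edgeR), and a fit that blocked on matched pairs gave 0.89 (adjusted p = 0.0284), a fit that called 8.46% of all genes and 1 of the 49 members. Psmc3, another ATPase, was at 231 to 306 CPM in R9del and 112 to 219 CPM in R9wt without overlap, and its log2 fold change was 0.64 ± 0.24 (adjusted p = 0.172), with 8.25% of its exon bases overlapped by Slc39a13. Psme4 was at 160 to 215 CPM in R9del (159.9 at the lowest) and 103 to 139 CPM in R9wt, with 0.56 ± 0.20 (adjusted p = 0.160). Psmd14 had 0.62 ± 0.29 and was higher in 4 of 4 pairs (adjusted p = 0.261).

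The 3 lower members that the naming rule takes were further from the threshold. Psma7 had a log2 fold change of -0.38 ± 0.22 (adjusted p = 0.362), Psmd8, a lid subunit, -0.40 ± 0.25 (adjusted p = 0.400), and Psme2 -0.44 ± 0.27 (adjusted p = 0.403). Psmd8 was at 107 to 118 CPM in all R9del libraries and at 92.5 to 192 CPM in R9wt. The genotype group median also depended on single libraries. By pair, the median of the 49 members was 0.40 (D1) and 0.35 (D5) in space, and -0.17 (D1) and 0.22 (D5) on the ground. With library size alone as the scaling, the ground medians were -0.05 (26 members lower instead of 37) and 0.35. With TMM scaling, the group median without Space_R9wt_D1 was 0.03, with 27 of 49 members above 0, and it was 0.27 without Ground_R9wt_D1.

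**Figure D5:**
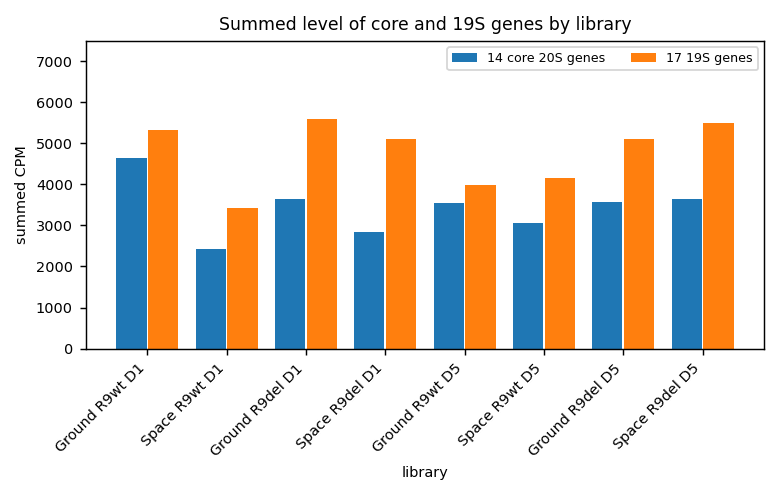
Summed CPM of the 14 core 20S genes and of the 17 genes of the 19S particle in each library, as bars from 0. The core sum runs from 2417 (Space_R9wt_D1) to 4644 CPM (Ground_R9wt_D1), and the 19S sum from 3426 (Space_R9wt_D1) to 5591 CPM (Ground_R9del_D1).

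The balance between core and 19S transcripts was lower in R9del in every matched pair, but by a narrow margin between the groups. The log2 ratio of the summed core CPM to the summed 19S CPM was -0.50 in Space_R9wt_D1, -0.44 in Space_R9wt_D5, -0.20 in Ground_R9wt_D1 and -0.17 in Ground_R9wt_D5. It was -0.85, -0.60, -0.62 and -0.52 in the R9del libraries of the same conditions. All 4 R9del values were below all 4 R9wt values, but the nearest, -0.52 in Ground_R9del_D5 and -0.50 in Space_R9wt_D1, were 0.013 apart, less than either SD, and within each genotype the space value was below the ground value at the same duration. The means were -0.64 ± 0.14 in R9del and -0.33 ± 0.17 in R9wt (SD, n = 4 libraries each), and the difference was not tested, since the ratio is a score over members.

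The third comparison set D5 against D1. The median log2 fold change of the members was 0.00 and 24 of 49 were above 0. No member passed at an adjusted p under 0.05 by edgeR, by DESeq2's Wald test or by edgeR's exact test (0.44% and 0.166% of all genes by the last 2), and none had an unadjusted p under 0.05 by edgeR, where 0% of all genes passed in either direction by edgeR's quasi-likelihood test and 4.32% had an unadjusted p under 0.05. The largest values were those of the inducible subunits Psmb8 (1.01 ± 0.69) and Psmb10 (-0.80 ± 0.45), both with an adjusted p of 1. The other members that the rule takes were Psmb1 (0.31), Psme2 (0.37), Psmd1 (-0.29) and Psmd7 (-0.22), with adjusted p of 1 as well. The sign of the median depended on single libraries, at -0.12 without Space_R9wt_D1 and 0.11 without Ground_R9wt_D1. Values of the named members moved as well. Psmd1 was at -0.08 without Ground_R9wt_D5 and -0.56 without Space_R9del_D5, and Psmb1 at 0.14 without Ground_R9wt_D5. Without Ground_R9wt_D1, Psme2 was at 0.66 and Psmb10 at -0.43, and without Space_R9wt_D1, Psmd7 was at -0.40.

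The exchange of constitutive for inducible catalytic subunits was read as a ratio within each library, which no scaling affects. Psmb8 was at 0.46 CPM in Space_R9wt_D1, 0.67 in Space_R9del_D5, 1.62 in Space_R9del_D1 and 4.70 in Space_R9wt_D5, and at 1.69 to 5.29 CPM on the ground. The log2 ratio of Psmb8 to Psmb5 averaged -6.03 ± 1.505 in space and -5.14 ± 0.83 on the ground (SD, n = 4 libraries each), a difference of -0.89 that an exact two-sided permutation test did not separate (p = 0.314, adjusted 0.446 over 6 tests). That difference depended on single libraries, at -0.45 without Space_R9del_D5 and -1.54 without Space_R9wt_D5. Psmb10 was at 2.80 to 5.30 CPM in space and 5.71 to 14.6 CPM on the ground, without overlap. Its log2 ratio to Psmb7 averaged -3.84 ± 0.41 in space and -3.14 ± 0.51 on the ground (exact permutation p = 0.143, adjusted 0.429), and the ratio was lower in space in 4 of 4 matched pairs, by log2 differences of -0.63 to -0.87. For D5 against D1 the same ratio differed by -0.76 (exact permutation p = 0.0571, adjusted 0.343) and was lower at D5 in 4 of 4 pairs (-0.50 to -1.10). The permutation did not use the pairs, and a test over 4 pairs cannot go below 0.125. The smallest p that 4 libraries against 4 allow is 0.0286, which over 6 tests comes to 0.171 for a ratio alone at that value, so no such ratio could pass. The genotype differences were -0.84 for Psmb8 to Psmb5 and -0.01 for Psmb10 to Psmb7, with exact permutation p of 0.371 and 0.971. The Psmb8 to Psmb5 value by genotype was -0.39 without Space_R9del_D5 and -1.47 without Space_R9wt_D1, and by duration, 0.92 with all libraries, it was 0.57 without Ground_R9wt_D5 and 1.67 without Space_R9del_D5.

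Genes that work with the proteasome were read from lists written with earlier results of these data known. Their counts stand against the 5.13% of all genes that fell and the 1.19% that rose in space, and the 0.85% that fell in R9del, so that 1 call in a list of 9 or 11 genes is no result about the list. Of 9 measured partners of the proteasome, 1 fell in space and none rose, with 7 values below 0 and 2 above (median -0.21). It was Txnl1, a redox protein of the 19S particle, at 109 to 163 CPM in space and 243 to 388 CPM on the ground (log2 fold change -0.95, adjusted p = 0.0298), and the call held in 3 of 8 fits with a library left out (adjusted p from 0.0456 to 0.0715). Pomp, the maturation factor of the core, had -0.56 (adjusted p = 0.179). Of 11 shuttle and segregase genes, 1 fell, with 5 values below 0 and 6 above (median 0.12). Rad23b, which carries ubiquitinated proteins to the proteasome and also acts in nucleotide excision repair, was at 76.9 to 90.5 CPM in space and 340 to 522 CPM on the ground (log2 fold change -2.27, adjusted p = 1.01e-04; 339.7 CPM at the lowest on the ground). None of 6 genes of ubiquitin and its activating enzymes passed (4 below 0 and 2 above, median -0.32), and Ubb, a polyubiquitin gene, had -0.19 (adjusted p = 0.743).

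Of 9 regulators of proteasome genes, 7 had values above 0 in space and 2 below (median 0.37), and 1 passed. Maff, a small Maf partner of Nfe2l1 and Nfe2l2, fell in space, from 9.46 to 49.1 CPM on the ground to 2.47 to 6.76 CPM (log2 fold change -2.76, adjusted p = 0.0136, and 0.0503 without Space_R9del_D5). The other small Mafs had values above 0 that did not pass, Mafg 0.76 (adjusted p = 0.0631) and Mafk 0.57 (adjusted p = 0.489). Nfe2l1 itself was at 137 CPM in Space_R9wt_D1, the library with the lowest level of most subunits, and at 21.0 to 32.0 CPM in the other 7 libraries (log2 fold change 1.05, adjusted p = 0.348). Among 9 genes of interferon response and antigen processing, none passed by location (5 above 0 and 4 below, median 0.10), and 1 fell in R9del cells, with 6 values below 0 and 3 above (median -0.69). It was H2-K1, a class I histocompatibility heavy chain, at 35.4 to 76.5 CPM in R9del and 94.0 to 209 CPM in R9wt (log2 fold change -1.53, adjusted p = 0.0447). The call was lost in all 8 fits with a library left out, at adjusted p from 0.0509 to 0.142. It was kept in 6 of 7 alternative analyses and lost in the one without the filter on low counts (adjusted p = 0.0573 by edgeR). No gene of these 5 lists passed for D5 against D1.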

How the data were processed

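mRNA libraries made from the total RNA of 8 mESC cultures were sequenced with paired-end reads. Per the labels, the authors aligned reads to mm9 with TopHat2 2.0.9 and deposited read counts per Ensembl gene, whole numbers without normalization. The counting program, annotation and strand handling are not given in the sources used here, so copies and overlapping genes may exchange reads. Counts were scaled with TMM factors and filtered by filterByExpr (minimum count 10), leaving 20473 genes. edgeR 4.0.16 quasi-likelihood tests compared 4 libraries against 4, adjusted over all genes (Benjamini-Hochberg). The code was first checked on simulated counts with a location effect alone, drawn as replicates. That check cannot show the error rates here, where the libraries of a group differ in other conditions. DESeq2 1.42.0 was an alternative. Ratios used exact permutation tests with a pseudocount of 0.5. Log2 CPM used a prior count of 2. Lengths and GC content came from GENCODE for mm9, and promoters from RefSeq (GRCm38.p6). A count of 0 allows 3 counts, at most 0.0503 CPM, counting error only. The name rule for members used no measured value, but the rule and the lists were chosen with earlier results of these data known. Named members are the 3 higher and 3 lower with the smallest p per comparison, the extremes of each class, and the inducible, activator and assembly genes. Libraries that share the other conditions deviated together across genes (r of 0.28 to 0.61 for space and ground, against a mean of -0.12 for other pairings), the pairing coming from the labelled conditions, so a fit with the pairs as a block was also run. Some genes of the pathway lists are not reported here by name.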

Additional observations from a re-analysis of the deposited data

Results flagged for a closer look

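In groups of 4 libraries, a gap test (Dixon's, at 95%) was applied to 33 named members and 6 genes of the pathway lists. It marked 12 of 234 groups, and chance marks about 1 in 20.

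Among the members, Psmb1 was at 365.53 CPM in Ground_R9wt_D5 where the other D5 libraries were at 230.07 to 252.7. Psmb5 was at 80.7 CPM in Space_R9del_D1, below the 107.42 to 111.76 of the other R9del libraries. Psmd2 was at 603.04 CPM in the same library, above the 423.09 to 426.5 of the other D1 libraries, and so was Psme4, at 215.15 CPM against 159.88 to 168.74 in the other R9del libraries. Psmd5 was at 183.44 CPM in Ground_R9del_D1 against 160.12 to 163.06 in the other R9del libraries. Psmd9 was at 28.45 CPM in Space_R9del_D5 against 19.54 to 20.18 in the other D5 libraries. Psme2 was at 54.34 CPM in Ground_R9wt_D1 against 27.18 to 30.86 in the other D1 libraries.

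Among the pathway genes, Nfe2l1 was at 136.5 CPM in Space_R9wt_D1 and stood apart in the space, R9wt and D1 groups alike, where no other library was above 31.97 CPM. Txnl1 was at 109.4 CPM in that library, below the 160.7 to 163.1 of the other space libraries. Maff was at 46.07 CPM in Ground_R9wt_D1 against 2.473 to 9.464 in the other D1 libraries.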

How the results depend on the processing

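Each condition has 1 library, so the group comparisons read culture conditions as spread, and no difference within 1 condition can be tested. Psmd3 was called for location under all 7 alternative analyses and without any 1 library. The number of members called for location was 1 in the main analysis (2.04% of members, 6.32% of all genes). It was 2 with edgeR's exact test (Psme3 added, -1.10, adjusted p = 0.0488, with 8.78% of all genes called). An additive edgeR fit gave 3 (Psme3, -1.17, adjusted p = 0.0443, and Psmd1, 0.73, adjusted p = 0.0442), 6.12% of members and 10.6% of all genes. With 1 library left out, 3.93% to 5.84% of all genes were called. The number of members was then 1 to 2, the 2 arising without Ground_R9wt_D5 (Psma6 added, -1.07, adjusted p = 0.0416 by edgeR), 4.08% of members against 5.84% of all genes. For genotype it was 0 (2.04% of all genes), and 1 when the fit blocked on matched pairs (Psmc4, 0.89, adjusted p = 0.0284; 8.46% of all genes), and 0 to 1 with 1 library left out, the 1 arising without Ground_R9wt_D1 (Psmc4, 1.11, adjusted p = 0.0472; 2.54% of all genes). Without Space_R9wt_D1, Space_R9del_D1, Ground_R9del_D1 or Ground_R9wt_D5, edgeR called 0 genes of the whole table for genotype, so that Rad9a lost its call as well. In those fits 3 to 5 members had an unadjusted p under 0.05. With all libraries 5 members did (10.2%), against 20.2% of all genes. By the fold change rule the genotype count was 0, where 6.37% of all genes were higher and 7.39% lower, and 0 to 2 with 1 library left out. All-gene shares by this rule and at an unadjusted p were not taken with a library left out. The block changed no other member call at an adjusted p under 0.05. The genotype difference in the Psmb10 to Psmb7 ratio, -0.01, changed sign without 1 library and ranged from -0.28 to 0.30. Member medians moved by less than the spread of the 4 pairs. The causes of these changes were not tested. Psmb11 was too low to compare, and Psmb8 had 31 counts in Space_R9wt_D1 and 40 in Space_R9del_D5, where counting error alone is 18.0% and 15.8%.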
